A study of Mus musculus with 36 samples.

Results

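The 10 genes described here encode proteins of excitation-contraction coupling in skeletal muscle or subunits of voltage-gated calcium channels: Cacna1s, Cacna2d1, Cacna2d4, Cacnb1, Cacng1, Cacng6, Ryr1, Stac3, Jph1 and Jph2. They were chosen by gene name among the 46893 genes of the count table, and all 10 were found. Neither the expression level nor the change of any gene was part of the rule, but the members were chosen with earlier results of these data known.

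A nerve impulse reaches the interior of a muscle fibre along the T-tubules, where the voltage-gated calcium channel of skeletal muscle, also called the dihydropyridine receptor, acts as the voltage sensor. It is coupled directly to the ryanodine receptor of the sarcoplasmic reticulum, which opens and releases the calcium that starts contraction. The channel is a complex of a pore-forming subunit with alpha2delta, beta and gamma subunits, and both receptors face each other at the triad, where junctophilins hold the membranes together.

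RNA was sequenced from the gastrocnemius muscle, a mixed calf muscle of mainly fast fibres, of 36 wild-type male C57BL/6 mice, which were 3 to 4 weeks old at the start and were kept on their treatment for 12 weeks. The 6 groups held 6 mice each. NFD-C was sedentary on the AIN93G diet, and HFD-C was sedentary on a high-fat diet based on soybean oil. The 4 running groups ate the same high-fat diet and had a running wheel in the cage: HFD-U ran without restriction and averaged 8.3 km/day, while brakes on the wheel held HFD-25%, HFD-50% and HFD-75% to averages of 2.1, 4.2 and 6.3 km/day. Only the running groups had access to a wheel, and no normal-fat running group was part of the design, so diet was compared only between sedentary mice and running only on the high-fat diet.

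Each library held between 13060090 and 27981702 counts, with a median of 16710687.5. The tissue label was checked against marker genes. Muscle actin Acta1 averaged 26020 and the fast myosin Myh4 48120 CPM (counts scaled to a common library size), and both were high in every mouse. The fast myosin light chain Mylpf averaged only 0.799 CPM in the table. The share of counts on 5 rRNA-linked features differed between sets of libraries: it was 2.012% to 3.803% in NFD-C and 2.12% to 3.538% in HFD-C mice 1 to 4, but 0.5513% and 0.6264% in HFD-C mice 5 and 6 and 0.4036% to 1.016% in the running groups. Refits with this share as covariate, or with only HFD-C mice 5 and 6 as controls, are given beside the results whose call they changed, and the part of the share in any result was not tested. The mice numbered 1 stood apart in several members, so some results are also given for the mice numbered 2 to 6 alone.

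Positions are those of the count table, whose sequence accessions belong to the mouse build GRCm39, and all 10 genes were annotated as protein coding. The pore-forming subunit Cacna1s lay on chromosome 1 at chr1:135980261-136047560 on the plus strand. The alpha2delta genes were Cacna2d1 at chr5:16139390-16579509 and Cacna2d4 at chr6:119213435-119329368, both on the plus strand. The beta subunit gene Cacnb1 at chr11:97892334-97913860 and the gamma subunit gene Cacng1 at chr11:107594044-107607302 shared a chromosome and lay on the minus strand, while the gamma subunit gene Cacng6 was at chr7:3472017-3484183 on the plus strand. Ryr1, the calcium release channel, was at chr7:28702765-28824599 on the minus strand, and Stac3, the adaptor, at chr10:127337505-127344692 on the plus strand. The junctophilin genes Jph1, at chr1:17012328-17168132, and Jph2, at chr2:163178162-163239969, lay on the minus strand. Exonic, intronic and UTR reads were not separated, since the table held 1 count per gene.

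Ryr1, Cacna1s, Cacna2d1 and Jph2 varied together from mouse to mouse, and the 250 bases before their start sites are shown for that reason. They come from the RefSeq promoter table of build GRCm38.p6, which held 6 of the 10 members; Cacna2d4, Cacng1, Stac3 and Jph1 had no entry. The capitals mark E-boxes, searched as CANNTG, a palindromic pattern that reads the same on both strands and is bound by basic helix-loop-helix factors such as the myogenic regulators. The Cacna1s window is chr1:136052561-136052810 and the Cacna2d1 window chr5:15934441-15934690, both on the plus strand, the Jph2 window chr2:163397994-163398243 and the Ryr1 window chr7:29125152-29125401, both on the minus strand, each written 5′ to 3′.
Cacna1s: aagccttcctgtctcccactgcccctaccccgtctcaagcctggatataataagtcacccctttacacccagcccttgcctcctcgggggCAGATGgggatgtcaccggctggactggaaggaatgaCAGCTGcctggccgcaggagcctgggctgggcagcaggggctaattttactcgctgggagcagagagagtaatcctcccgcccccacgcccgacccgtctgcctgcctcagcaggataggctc
Cacna2d1: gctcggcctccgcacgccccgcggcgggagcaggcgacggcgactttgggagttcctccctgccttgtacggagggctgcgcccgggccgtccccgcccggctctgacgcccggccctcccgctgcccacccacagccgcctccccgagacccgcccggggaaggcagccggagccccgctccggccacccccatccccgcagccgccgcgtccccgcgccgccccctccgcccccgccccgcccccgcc
Jph2: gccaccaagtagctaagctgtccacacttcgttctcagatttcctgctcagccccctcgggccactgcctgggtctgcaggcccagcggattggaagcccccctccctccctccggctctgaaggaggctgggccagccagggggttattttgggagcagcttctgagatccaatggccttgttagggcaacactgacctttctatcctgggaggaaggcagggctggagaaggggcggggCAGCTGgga
Ryr1: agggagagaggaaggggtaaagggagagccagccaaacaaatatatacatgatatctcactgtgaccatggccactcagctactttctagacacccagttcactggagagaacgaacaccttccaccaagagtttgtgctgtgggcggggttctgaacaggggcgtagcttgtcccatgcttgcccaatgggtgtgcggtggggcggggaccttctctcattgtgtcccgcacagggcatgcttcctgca
The E-boxes of Cacna1s began 160 and 123 bases before its start site, and the second of these had the letters CAGCTG. That of Jph2 began 9 bases before the start and was also CAGCTG; from a second start site of Jph2 in the table, at chr2:163397974-163398223, it lay 29 bases away. No CANNTG stood in the Ryr1 and Cacna2d1 windows. Cacng6 also varied with the genes shown, and its window, not printed here, held 2 CANNTG, which began 238 and 157 bases before its start site. CANNTG occurred in 66.2% and CAGCTG in 13% of the 32851 windows of this length in the table, so a match describes the letters and marks no binding site.

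All 10 genes had counts in every mouse, at levels far apart. On the scale of CPM per kilobase of the gene length in the table, averaged over 36 mice, the order was Cacng1 at 242, Ryr1 at 228, Cacna1s at 127, Jph2 at 119, Stac3 at 111, Jph1 at 77.6, Cacng6 at 51.1, Cacnb1 at 23.2, Cacna2d1 at 17.3 and Cacna2d4 at 0.941. The upper part of this order was not sharp: Cacng1 exceeded Ryr1 in 25 of 36 mice, Cacna1s exceeded Jph2 in 25 and Jph2 exceeded Stac3 in 20. Ryr1 exceeded Cacna1s, Jph1 exceeded Cacng6 and Cacng6 exceeded Cacnb1 in 36 of 36 mice. Cacna2d1 and Cacna2d4, the alpha2delta genes, also differed in 36 of 36 mice. The rank of Cacna2d1 depended on its length, which the table gives as 22444 bases while its longest GENCODE M21 transcript has 7436, and with transcript lengths it changed places with Cacnb1. Cacna2d4 rested on 22 to 194 counts per library, whereas no other member fell below 1529 counts.

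**Figure D1:**
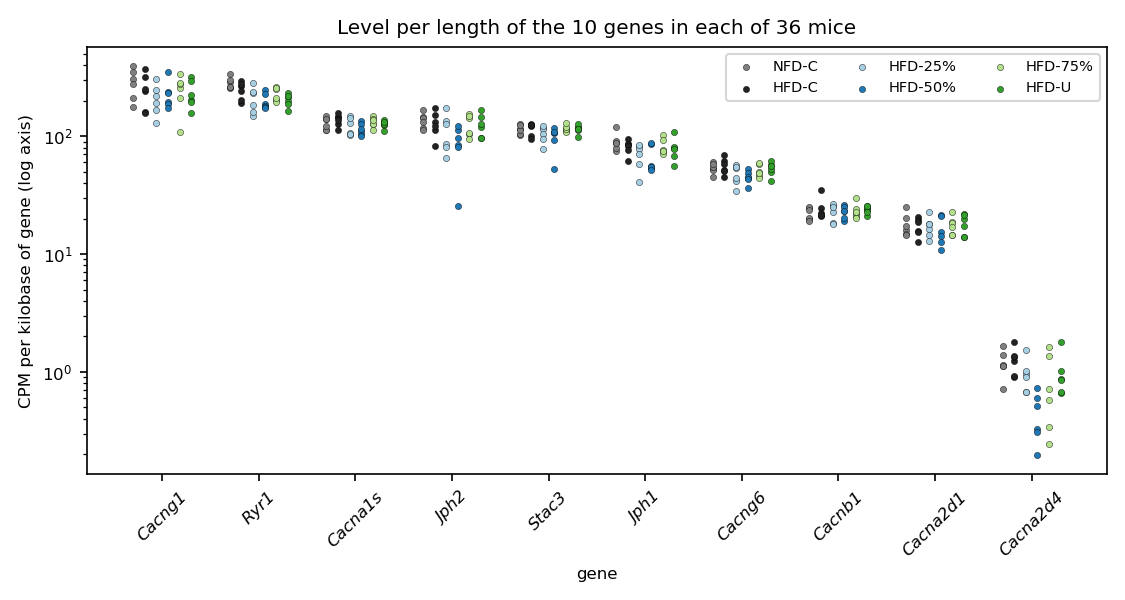
Level per length of the 10 genes, as CPM per kilobase on a log axis, with 1 point for each of 36 mice coloured by group. Cacng1 and Ryr1 head the order at means of 242 and 228, and Cacna2d4 lies far below the other members at 0.941.

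The scatter between mice of the same group also differed between members. The within-group coefficient of variation of the CPM, averaged over the 6 groups, was lowest in Cacna1s at 11.5%, followed by Stac3 at 12.6%, Cacng6 at 13.6%, Cacnb1 at 14.1% and Ryr1 at 15.5%. Jph1 at 19.9% and Cacna2d1 at 20.8% were close to the median of all genes kept, 20.4%. Jph2 at 26.4%, Cacng1 at 29.9% and Cacna2d4 at 40.5% were more variable.

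The first question was whether any member differed among the 6 groups. A gene was called at an unadjusted p of at most 0.05 in edgeR's quasi-likelihood test. The study applied this unadjusted threshold to DESeq2 p values instead, and listed its most changed genes by an adjusted DESeq2 p and a fold-change cutoff. Adjusted p values are Benjamini-Hochberg values over all genes of the fit. In the 6-group test 2 of 10 members were called, Cacna2d4 and Ryr1, beside 12.2% of the 12053 genes tested. In edgeR none of the 10 passed an adjusted p of at most 0.05, which 1.45% of all genes did. With DESeq2 both Cacna2d4 (adjusted p = 0.0183) and Ryr1 (adjusted p = 0.0230) passed, and the share of all genes passing with it is not given here. The other 8 members had unadjusted p values between 0.0831 (Jph1) and 0.905 (Cacna2d1 and Cacnb1) in edgeR. Cacng6 was called in this test with the rRNA-linked share as covariate (unadjusted p = 0.0499), and with the mice numbered 2 to 6 alone Cacng6 (unadjusted p = 0.0388) and Jph1 (unadjusted p = 0.038) were called.

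**Figure D2:**
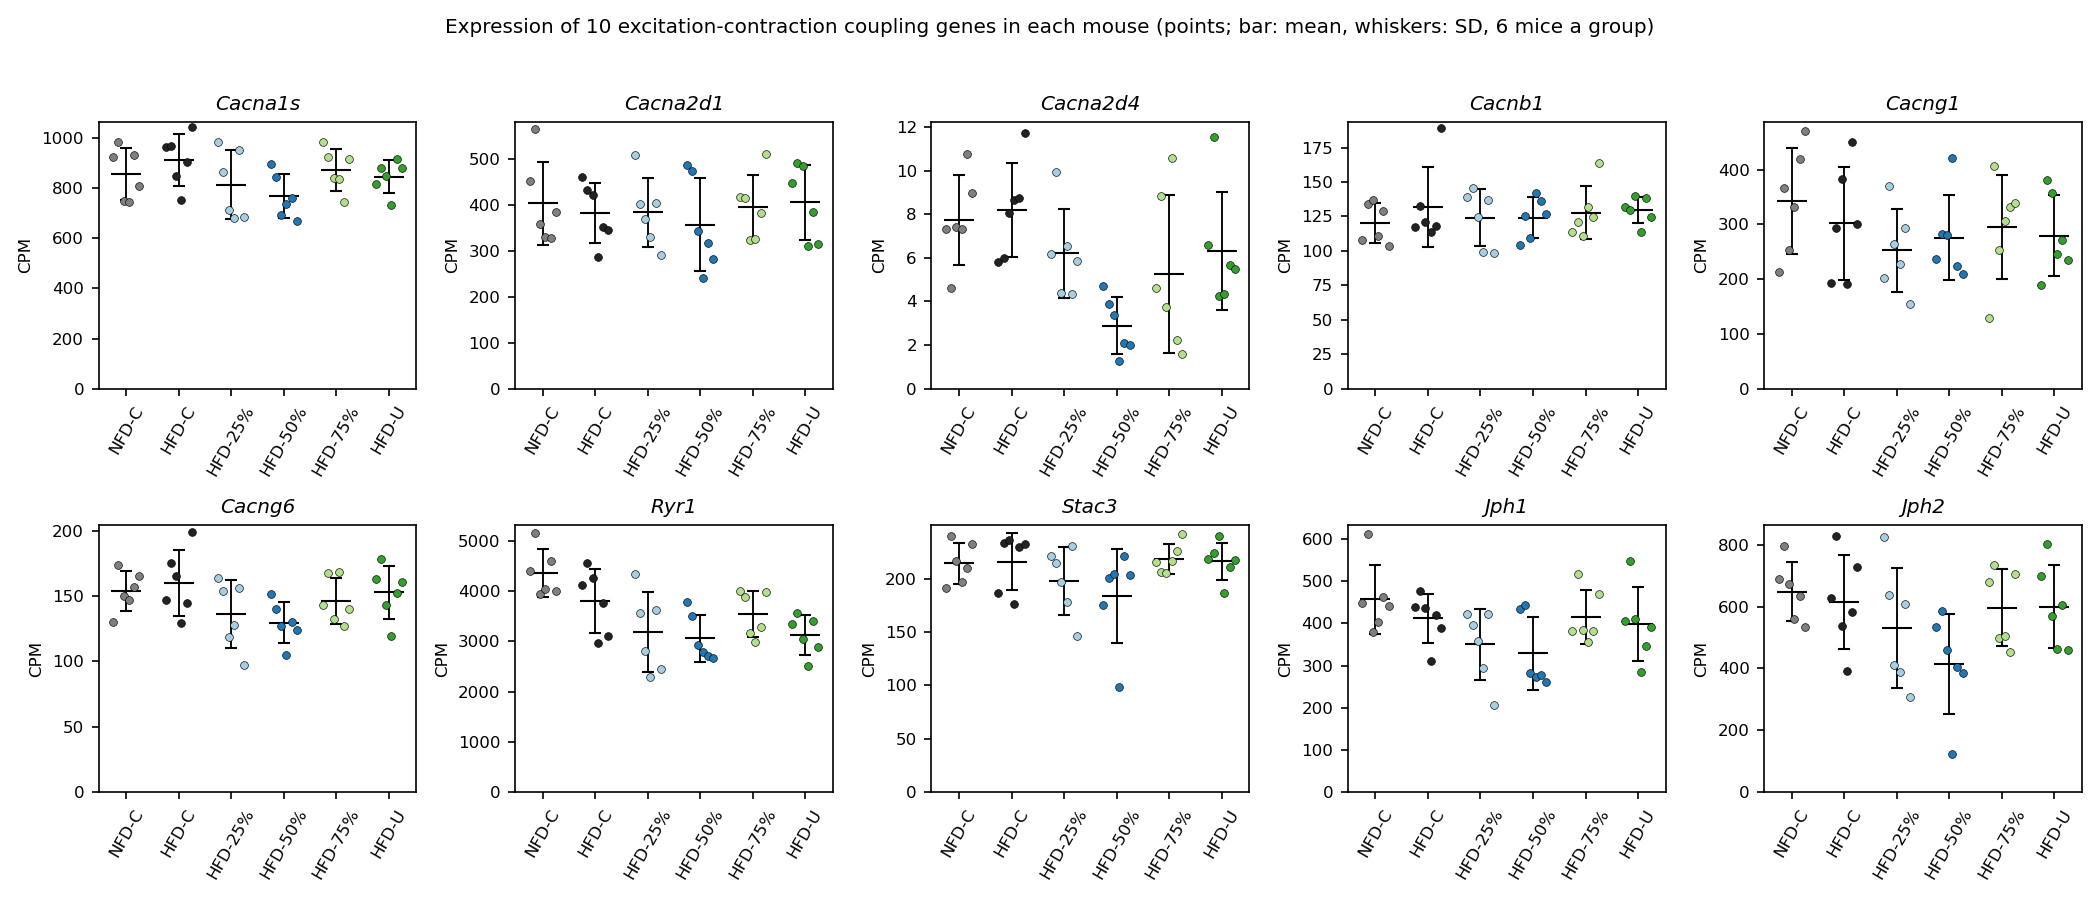
CPM of the 10 genes in every mouse, with 1 panel per gene, the 6 groups on the x axis, a bar for the mean and whiskers for the SD of 6 mice. Cacna2d4 is lowest in HFD-50%, where no mouse overlaps HFD-C, while the other members overlap between HFD-C and every running group.

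Ryr1, the channel through which the sarcoplasmic reticulum releases calcium, was the member with the most counts. Its level in NFD-C ranged from 3947 CPM over a median of 4228 to 5164. In HFD-C the lowest, median and highest values were 2973, 3941 and 4557 CPM. The sedentary groups overlapped, and the means of 4363 ± 469.7 and 3797 ± 638.7 CPM (SD, n = 6 each) gave no call (unadjusted p = 0.161, edgeR).
In HFD-25% Ryr1 ranged from 2289.95 over 3196 to 4333 CPM, and in HFD-50% from 2661 over 2861 to 3786. In HFD-75% it ranged from 2983 over 3587 to 4013 CPM, and in HFD-U from 2504 over 3197 to 3563. Each running group overlapped HFD-C, and all mice of HFD-50% and HFD-U lay below the lowest NFD-C mouse.
The 6-group test gave an unadjusted p of 0.00553 for Ryr1 and an adjusted p of 0.153 in edgeR. With the rRNA-linked share as covariate the unadjusted p was 0.257, so the call did not hold there. Against HFD-C, the log2 fold change of Ryr1 was -0.25 (SE 0.18, unadjusted p = 0.187) in HFD-25% and -0.31 (SE 0.16, unadjusted p = 0.0772) in HFD-50%. It was -0.09 (SE 0.15, unadjusted p = 0.543) in HFD-75% and -0.28 (SE 0.14, unadjusted p = 0.0719) in HFD-U, so edgeR called none of these. Over all 24 running mice it was -0.23 (SE 0.12, unadjusted p = 0.0512), with 20 of 24 mice below the HFD-C mean. With the rRNA-linked share as covariate it was again -0.23 (unadjusted p = 0.199), and the HFD-50% value was -0.20 (unadjusted p = 0.32). With the mice numbered 2 to 6 alone the running value was called, at -0.26 (unadjusted p = 0.0328). It was -0.09 (unadjusted p = 0.639) with only the HFD-C mice of the same low rRNA-linked share, and those in HFD-50% and HFD-U were then -0.16 (unadjusted p = 0.497) and -0.14 (unadjusted p = 0.46). Without HFD-C mouse 4 or 6, the lowest of that group in Ryr1 at 2973 and 3116 CPM, the calls appeared: the unadjusted p was 0.0433 or 0.047 in HFD-50%, 0.0347 or 0.0383 in HFD-U and 0.021 or 0.0269 for all running mice. In HFD-50% Ryr1 was also called without HFD-50% mouse 1, and for all running mice without any 1 of 8 running mice.

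Cacna1s, the pore-forming subunit and voltage sensor, ranged in HFD-C from 754 over a median of 935 to 1046 CPM, and in HFD-50% from 671 over 750.4 to 898. Every HFD-50% mouse lay below the HFD-C mean, but the groups overlapped. Group means ran from 768 CPM in HFD-50% to 914 in HFD-C, and the log2 fold change between these was -0.25 (SE 0.13, unadjusted p = 0.0782, adjusted p = 0.515, edgeR). In the other comparisons with HFD-C the log2 fold change of Cacna1s lay between -0.17 in HFD-25% and -0.06 in HFD-75%, with 95% intervals that all included 0. Over all running mice Cacna1s was called lower with the rRNA-linked share as covariate, at -0.29 (unadjusted p = 0.0283).

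Cacna2d4 encodes an alpha2delta subunit that is known best from the photoreceptors of the retina, and it was the least abundant member. In NFD-C it ranged from 4.61 over a median of 7.37 to 10.8 CPM, and in HFD-C from 5.82 over 8.37 to 11.7. The sedentary groups overlapped almost fully.
In HFD-25% it ranged from 4.36 over 6.02 to 9.95 CPM and in HFD-50% from 1.28 over 2.74 to 4.70. In HFD-75% it ranged from 1.58 over 4.19 to 10.6 CPM and in HFD-U from 4.26 over 5.58 to 11.6. The highest HFD-50% mouse was thus lower than the lowest HFD-C mouse, while the other running groups overlapped HFD-C. Raw counts were 22 to 69 in HFD-50% and 116 to 170 in HFD-C.
Against HFD-C the log2 fold change in HFD-50% was -1.50 (SE 0.29, 95% interval -2.11 to -0.88), and the edgeR test gave an unadjusted p of 9.88e-05 and an adjusted p of 0.108. The adjusted p depended on the procedure: it was 0.000703 with DESeq2, 0.0189 with no minimum count, 0.0248 with 1 fit over all 36 libraries, and 0.345 when only the HFD-C mice with the same low rRNA-linked share were kept. The fold change was as large under these, at -1.81 with those controls and -1.90 with the share as covariate. For the other running groups Cacna2d4 gave -0.39 (SE 0.22) in HFD-25%, -0.62 (SE 0.38) in HFD-75% and -0.36 (SE 0.25) in HFD-U, none of them called. With the rRNA-linked share as covariate these became -0.76 (unadjusted p = 0.0166), -0.96 (unadjusted p = 0.074) and -0.84 (unadjusted p = 0.0195), so HFD-25% and HFD-U were then called. With only the HFD-C mice of the same low share they were -0.71 (unadjusted p = 0.0399), -0.95 (unadjusted p = 0.123) and -0.69 (unadjusted p = 0.0654). Compared directly with HFD-U, HFD-50% was lower by a log2 fold change of -1.13 (SE 0.32, unadjusted p = 0.00294, adjusted p = 0.242, edgeR), and 5 of 6 HFD-50% mice lay below every HFD-U mouse. This difference became -0.53 (unadjusted p = 0.166) with the rRNA-linked share as covariate.

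Cacna2d1, the alpha2delta subunit of the skeletal muscle channel, was far more abundant than Cacna2d4 and ranged from 241 to 564 CPM over all mice. Its group means lay between 357 CPM in HFD-50% and 405 in HFD-U, and all groups overlapped. No comparison called it, and its log2 fold change in HFD-50% against HFD-C was -0.10 (SE 0.18, 95% interval -0.49 to 0.29). The corresponding value of Cacna2d4 was -1.50, and the difference between both alpha2delta genes was not tested.

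Cacnb1, the beta subunit that brings the channel to the T-tubule membrane, stayed between group means of 120.5 CPM in NFD-C and 132 in HFD-C. The HFD-C values ran from 114 over a median of 119 to 189, and the highest belonged to a single mouse. The log2 fold change of Cacnb1 against HFD-C lay between -0.12 in NFD-C and -0.02 in HFD-U, with no call.

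Cacng1, the gamma subunit of the muscle channel, spread from 129.6 to 470.0 CPM over all mice, and every group covered much of that range. Group means lay between 252 CPM in HFD-25% and 343 in NFD-C, and the log2 fold changes against HFD-C ranged from -0.26 (SE 0.24) in HFD-25% to 0.19 (SE 0.23) in NFD-C. None was called, and the intervals reached to -0.76 and 0.68, so changes of moderate size could not be seen in this gene.

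Cacng6 encodes a further gamma subunit of striated muscle. It ranged in HFD-C from 129 over a median of 156 to 199 CPM, in HFD-50% from 105 over 129 to 151, and in HFD-U from 119 over 156 to 178. All 6 HFD-50% mice were below the HFD-C mean, and 3 of them below the lowest HFD-C mouse. The log2 fold change of HFD-50% against HFD-C was -0.30 (SE 0.13, 95% interval -0.58 to -0.02), called in edgeR at an unadjusted p of 0.0364 with an adjusted p of 0.430. The call was lost without any 1 of 7 libraries, HFD-50% mice 3, 4, 5 and 6 and HFD-C mice 2, 3 and 6, where the unadjusted p rose to at most 0.0927. It was also lost with no minimum count, at -0.31 (unadjusted p = 0.0553), and with the HFD-C mice of the same low share, at -0.39 (unadjusted p = 0.0667). Over all running mice Cacng6 was called lower with the rRNA-linked share as covariate, at -0.38 (unadjusted p = 0.0131), and with the mice numbered 2 to 6 alone, at -0.23 (unadjusted p = 0.046). In HFD-25% the change was -0.23 (SE 0.15), and in HFD-75% and HFD-U it was -0.12 and -0.06.

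Stac3, the adaptor that the voltage sensor needs to gate the release channel, was one of the steadiest members. HFD-C ranged from 177 over a median of 231 to 236 CPM and HFD-50% from 98.5 over 202 to 221. The lowest HFD-50% value came from a single mouse, and the groups overlapped. Its log2 fold change was -0.23 (SE 0.17) in HFD-50%, -0.13 (SE 0.13) in HFD-25%, 0.02 (SE 0.11) in HFD-75% and 0.00 (SE 0.11) in HFD-U, and none was called.

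The junctophilins tether the T-tubule to the sarcoplasmic reticulum, Jph1 mainly in skeletal muscle and Jph2 in skeletal muscle and heart. Jph1 ranged in HFD-C from 310.3 over a median of 428 to 477 CPM, and in HFD-50% from 262 over 280.0 to 444. Of the 6 HFD-50% mice 4 lay below every HFD-C mouse and the other pair lay within its range. Jph2 ranged in HFD-C from 391 over a median of 605 to 827 CPM and in HFD-50% from 123 over 432 to 584. All 6 HFD-50% mice were below the HFD-C mean of Jph2, and 2 were below its lowest mouse.
The log2 fold change in HFD-50% was -0.32 (SE 0.17, unadjusted p = 0.0734) for Jph1 and -0.57 (SE 0.28, unadjusted p = 0.061) for Jph2, and the edgeR adjusted p values were 0.513 and 0.491. With the mice numbered 2 to 6 alone Jph1 was called there, at -0.40 (unadjusted p = 0.0421). In HFD-75% both were close to 0, at 0.02 (SE 0.13) and -0.04 (SE 0.18), and in HFD-U at -0.05 (SE 0.15) and -0.04 (SE 0.18). In HFD-25% they were -0.23 (SE 0.17) and -0.22 (SE 0.23), with no call.

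Counted over the members, the running groups taken as 1 group against HFD-C gave 1 call of 10, Cacna2d4, with a log2 fold change of -0.66 (SE 0.30, unadjusted p = 0.0348, adjusted p = 0.482, edgeR) and 20 of 24 running mice below the HFD-C mean. Of all genes 9.27% were called in this comparison, 5.12% as lower. The call was lost without HFD-C mouse 3, 4, 5 or 6, where the unadjusted p was between 0.051 and 0.115. With the rRNA-linked share as covariate the value of Cacna2d4 was -1.32 (unadjusted p = 0.00514, adjusted p = 0.153, edgeR), and with only the HFD-C mice of the same low share -0.98 (unadjusted p = 0.0492). HFD-25% against HFD-C called 0 of 10 members beside 6.98% of all genes, and DESeq2 also called 0. HFD-50% called 2 of 10, Cacna2d4 and Cacng6, both lower. Of all genes tested 10.7% were called there, 593 of 12116 (4.89%) as lower. DESeq2 called 5 members there, adding Cacna1s, Ryr1 and Jph2, and the single fit over 36 libraries called the same 5. The replicate block also called 5, with Jph1 in place of Cacna1s. Of all genes DESeq2 called 1392, the single fit 1807 and the block 1709, beside 1296 of 12116 in the main fit. HFD-75% called 0 members beside 5.47% of all genes and 0 with DESeq2. HFD-U called 0 members beside 5.46%, while DESeq2 called 1, Ryr1, beside 702 of all genes. In that comparison all 6 pairs of equal mouse number deviated together, which was read from the same data and establishes no pairing. With the mouse number as a block Ryr1 was called as well, at a log2 fold change of -0.27 (unadjusted p = 0.00868, edgeR), beside 1232 of all genes. HFD-50% against HFD-U called 1 member, Cacna2d4, beside 12.4% of all genes, 5.34% as lower.

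By direction, all 10 members had lower fitted values in HFD-50% than in HFD-C, with a median log2 fold change of -0.27 beside 0.01 over all genes tested, and all 10 were lower than in HFD-U, with a median of -0.21 beside 0.02. The first of these held with the rRNA-linked share as covariate and became 9 of 10 with only the HFD-C mice of the same low share. The second became 5 of 10 with the covariate, where the median was -0.01 and Cacna2d1, Ryr1, Stac3, Jph1 and Jph2 turned higher. In HFD-25% 9 of 10 were lower, with a median of -0.22 beside -0.01. In HFD-75% 7 of 10 were lower and in HFD-U 8 of 10, with medians of -0.04 and -0.06. These directions are not independent observations, since the comparisons share the HFD-C mice and the members vary together from mouse to mouse. By edgeR's adjusted p, 0 of 10 members passed in any comparison, whereas the share of all genes that passed was 0.3% for the running groups together, 0.0082% for HFD-25%, 0.00844% for HFD-50% against HFD-U and 0% for HFD-50%, HFD-75%, HFD-U and NFD-C against HFD-C. DESeq2 passed 1 member in HFD-50% against HFD-C, Cacna2d4, and 0 in the other comparisons between groups listed here.

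**Figure D3:**
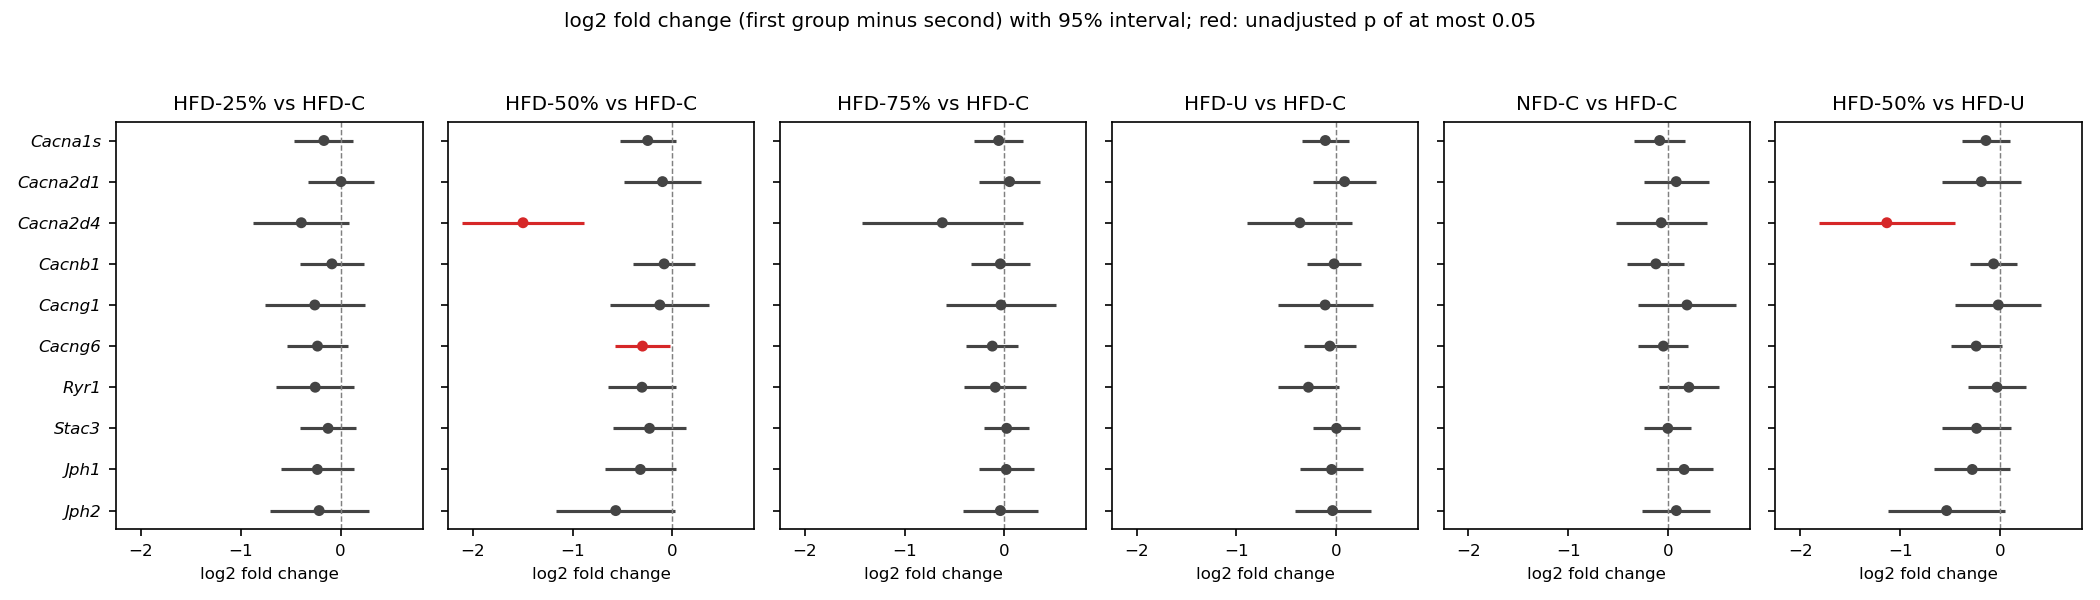
log2 fold change of each gene with its 95% interval in 6 comparisons, as the first group minus the second, with calls at an unadjusted p of at most 0.05 in red. In HFD-50% against HFD-C all 10 points lie below 0 and only Cacna2d4 (-1.50) and Cacng6 (-0.30) are red; in HFD-75% and NFD-C the points scatter around 0.

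The diet comparison, NFD-C against HFD-C in sedentary mice, called 0 of 10 members in edgeR and 0 in DESeq2, beside 4.12% of all genes. Of the members 5 were higher and 5 lower on the normal-fat diet, from -0.12 in Cacnb1 to 0.21 (SE 0.14, unadjusted p = 0.161) in Ryr1. The 95% intervals over the members reached from -0.52 to 0.68, and the smallest adjusted p of a member was 1.

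The study set running distance as a dose, so each member was also fitted with a linear and a squared term of the distance assigned to its group. Over the 30 high-fat mice, sedentary ones included, 1 of 10 members was called, Cacna2d4 (unadjusted p = 0.0103, adjusted p = 0.226, edgeR), beside 12.2% of all genes at the unadjusted and 0.683% at the adjusted threshold. With the linear term alone Cacna2d4 gave an unadjusted p of 0.259. Its group means did not fall steadily with distance: from 8.18 CPM in HFD-C they went to 6.21 at HFD-25% and 2.89 at HFD-50%, then to 5.26 at HFD-75% and 6.32 at HFD-U. Cacng6 came next at an unadjusted p of 0.0553, with means of 160.0, 136, 129.7, 146 and 153 CPM in the same order, and it was called with DESeq2 (unadjusted p = 0.0497), with the rRNA-linked share as covariate (unadjusted p = 0.0341) and with the mice numbered 2 to 6 alone (unadjusted p = 0.0441). Over the 24 running mice alone 0 of 10 members were called in edgeR and 0 in DESeq2, beside 8.49% of all genes (0.0419% by adjusted p), and the lowest unadjusted p was that of Cacna2d4 at 0.0943. With a linear term alone all 10 slopes over these 24 mice were above 0, with 0 calls beside 851 of 11935 genes. Their median was 0.23 log2 units for a change in distance equal to that of HFD-U, which is wider than the step from HFD-25% to HFD-U. Slopes of all genes are not given beside these, and the members vary together from mouse to mouse. Over the 30 mice only 4 of 10 slopes were above 0.

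The other genes of the pathway were taken from 5 lists, whose counts stand beside the 12.2% of all genes called in the 6-group test and the 1.45% that passed by adjusted p. Of 20 further voltage-gated calcium channel subunits only 6 had enough counts for the 6-group test, and none of these was called in edgeR. The gamma subunit gene Cacng7 was the most abundant of those named, at group means of 16.4 to 21.9 CPM, whereas the beta subunit gene Cacnb3 had 1.48 to 2.72 and the T-type channel gene Cacna1i 0.747 to 2.58. Of 17 tested proteins that bind or neighbour the release channel, 5 were called and 0 passed the adjusted threshold. Among them Itpr2, an inositol trisphosphate receptor, had an unadjusted p of 0.00276 in the 6-group test, and its log2 fold change in HFD-25% against HFD-C was 0.56 (SE 0.17, adjusted p = 0.427, edgeR). Homer1, a scaffold protein, had its lowest mean in HFD-50% at 72.5 CPM beside 97.7 in HFD-C (unadjusted p = 0.0739).

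Of 12 T-tubule and triad membrane genes 3 were called among the 6 groups. Among them was Speg, which encodes a kinase of striated muscle that acts at the triad. Speg had means of 586 and 523 CPM in NFD-C and HFD-C and 432 to 449 in the running groups, with an adjusted p of 0.00311 among the 6 groups in edgeR. For running against HFD-C its log2 fold change was -0.25 (adjusted p = 0.099, edgeR), and the adjusted p became 0.0386 without HFD-C mouse 6. With no minimum count the 6-group adjusted p of Speg was 0.0643, and with the rRNA-linked share as covariate it was 0.802. With only the HFD-C mice of the same low share the running difference was -0.02 (adjusted p = 0.946), and the part of the library set in this was not tested. Of 12 tested genes of surface excitation 1 was called, Chrna1 of the acetylcholine receptor (unadjusted p = 0.00668), and Scn4a, the muscle sodium channel, was not (unadjusted p = 0.203). Of 6 tested genes of store-operated calcium entry 1 was called, Orai1, the pore of that pathway (unadjusted p = 0.0235), while its sensor Stim1 gave an unadjusted p of 0.556. In HFD-50% against HFD-C the lists had medians of -0.20 for the T-tubule and triad genes, -0.09 for the release channel's partners, -0.09 for surface excitation and 0.01 for store-operated entry, beside the -0.27 of the 10 members.

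Marker genes of fibre types and other cells are given beside these results. Their counts stand beside the shares of all genes called. These were 12.4% in HFD-50% against HFD-U (5.34% as lower) and 10.7% in HFD-50% against HFD-C (4.89% as lower). For running against HFD-C the share was 9.27% (5.12% as lower). None of the 8 slow-fibre genes was called among the 6 groups or for running against HFD-C in edgeR. The summed CPM of 8 slow-fibre genes had a median of 1190 in HFD-C, 1668 in HFD-50% and 725 in HFD-U, with ranges of 143 to 2354, 614 to 3934 and 152 to 1848. In HFD-50% against HFD-U 6 of the 8 were called higher in edgeR, with a median log2 fold change of 1.68, though 0 of 8 passed by adjusted p, and in HFD-50% against HFD-C 0 of 8 were called. Of the 5 tested fast-fibre genes 0 were called in HFD-50% against HFD-U, and 1 was called lower in HFD-50% and in the running groups together against HFD-C, where the list medians were -0.07 and -0.05. Of other cell types, 2 of 4 fibroblast, 2 of 4 adipocyte and 1 of 3 macrophage genes were called lower for running against HFD-C, with list medians of -0.33, -0.59 and -0.29. In HFD-50% against HFD-C 1 of 4 fibroblast genes was called lower and 1 of 4 endothelial genes higher, with list medians of -0.46 and 0.36, and 0 of the genes of any marker list passed by adjusted p. The summed CPM of the fibroblast genes ranged from 292 to 539 in HFD-C and from 191 to 449 in HFD-50%, and that of the endothelial genes from 104 to 195 and from 111 to 259.7. The part of these cells in the members' values was not tested. For correlations, slow-fibre RNA was the mean log2 CPM of the 8 slow-fibre genes and not their sum. Across mice, after each group's mean was removed, the members lower in mice with more slow-fibre RNA were Cacng1 (r = -0.597, rho = -0.616, adjusted permutation p = 0.0062), Cacng6 (r = -0.501, rho = -0.451, adjusted p = 0.0318) and Jph1 (r = -0.482, rho = -0.425, adjusted p = 0.0318). Without the 2 mice farthest from the median of the gene these were -0.621, -0.416 and -0.382. The adjustment covered 20 relations, 10 with the slow-fibre mean and 10 with the rRNA-linked share, of which none of the latter passed by r. By rho Ryr1 also passed with the slow-fibre mean (r = -0.379, rho = -0.451, adjusted permutation p of rho = 0.0451), as did Cacng6 (rho = -0.447) and Stac3 (rho = -0.410) with the rRNA-linked share, both at an adjusted permutation p of 0.0451. In bulk muscle, fewer fibres of a type and less RNA per fibre cannot be told apart.

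Within groups most members rose and fell together from mouse to mouse. Of the 45 pairs, 43 had a positive correlation of group-centred log2 CPM over 36 mice, with a median r of 0.394 and a range from -0.174 to 0.822, and 23 passed a permutation test within groups at an adjusted p of at most 0.05. All genes of a mouse share 1 library, its depth and its composition, so this describes shared variation and says nothing of shared control.
The closest pairs were Cacna2d1 with Jph1 (r = 0.822, rho = 0.835), Ryr1 with Jph1 (r = 0.821, rho = 0.852), Cacna2d1 with Ryr1 (r = 0.807, rho = 0.827) and Cacna1s with Ryr1 (r = 0.772, rho = 0.763), each with an adjusted permutation p of 0.000112. Without the 2 mice farthest from the median these gave 0.787, 0.842, 0.784 and 0.721. The pore, the release channel, the alpha2delta subunit and the junctophilins thus formed a block, and Jph2 joined it at r = 0.626 with Cacna1s and 0.677 with Ryr1. Such covariation is not particular to the members. Genes outside the list came closer, such as Kpna3 to Cacna2d1 (r = 0.941) and Pip4k2b to Ryr1 (r = 0.901), each the highest of 12043 searched. Correlations over all pairs of genes are not given beside these.
Cacng1 stood outside this block, with r of 0.084 to Cacna1s and 0.154 to Ryr1, and passed only with Jph1 (r = 0.394, rho = 0.397, adjusted permutation p = 0.0393), a value that fell to 0.315 without the 2 farthest mice. Its place rested in part on the mice numbered 1: with the mice numbered 2 to 6 alone r was 0.459 with Cacna1s, 0.565 with Ryr1, 0.405 with Cacna2d1 and 0.621 with Jph1. In the same mice r stayed low with Jph2 (0.124), Stac3 (0.0983) and Cacna2d4 (0.114), and it was 0.387 with Cacng6 and 0.271 with Cacnb1. Without HFD-50% mouse 4 the r of Cacng1 with Stac3 rose from 0.140 to 0.542. Cacna2d4 passed only with Cacng6 (r = 0.500, rho = 0.524, adjusted permutation p = 0.00475), the other member called lower in HFD-50%, and the value without the 2 farthest mice was 0.501.

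**Figure D4:**
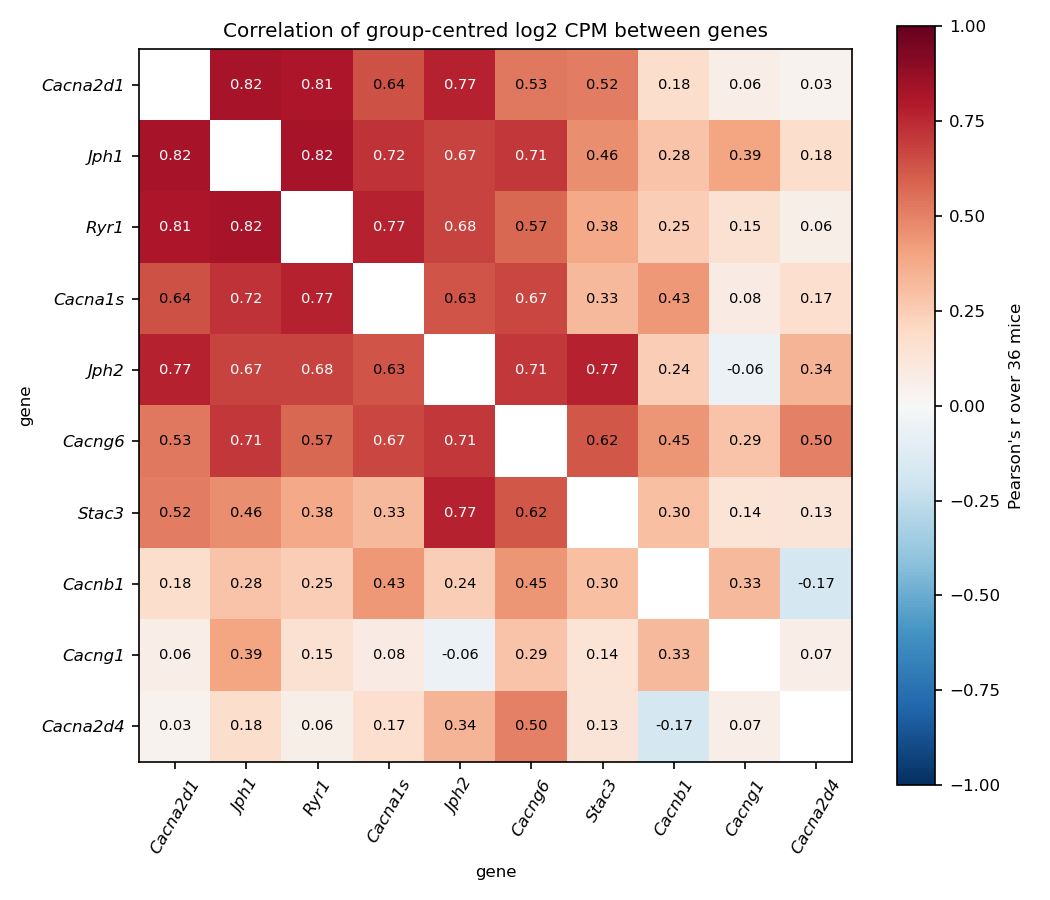
Pearson's r between each pair of the 10 genes over 36 mice, computed on log2 CPM after subtracting each group's mean, with red for positive and blue for negative values. The block of Cacna2d1, Jph1, Ryr1, Cacna1s, Jph2 and Cacng6 stands out with r up to 0.822, and Cacng1 and Cacna2d4 are pale against nearly all others. For Cacng1 this rested in part on the mice numbered 1, without which its r was 0.565 with Ryr1 but 0.124 with Jph2.

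A few libraries stood apart in the members. In mice numbered 1 Cacna2d1, Ryr1 and Jph2 lay above the group mean in 6 of 6 groups, by up to 0.493, 0.483 and 0.722 on the log2 scale, and Cacng1 lay below it in 6 of 6, by as much as -1.10. With the mice numbered 2 to 6 alone 42 of 45 pairs were above 0, and the median r was 0.490. HFD-50% mouse 4 had Jph2 at -1.60, Cacna2d4 at -0.99 and Stac3 at -0.85 log2 units from its group mean, but Cacng1 at 0.65. Without it the r of Stac3 with Jph2 fell from 0.766 to 0.534, while that of Cacna1s with Ryr1 stayed at 0.772.

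Among the 12043 other genes, the closest in pattern to each member over the 36 mice, by the same measure, differed from member to member. Cacna2d1 was nearest to Kpna3 (r = 0.941), Stac3 to Ak1 (0.947), Jph2 to Psap (0.933), Jph1 to Rragd (0.925), Cacng1 to Park7 (0.918), Ryr1 to Pip4k2b (0.901) and Cacna1s to Atg9a (0.873). Cacng6 was nearest to Tmem38a (0.804), which encodes the TRIC-A cation channel of the sarcoplasmic reticulum. Cacnb1 with Il12a (0.767) and Cacna2d4 with Sbk2 (0.711) had no close partner. These are the highest of many values and are given as a description.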

How the data were processed

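Gene counts were measured by RNA-seq in gastrocnemius muscle of 36 mice, 6 in each of 6 groups taken from the treatment label. The deposited values are raw counts per gene, 1 column per mouse. Per the labels and the study's methods, the authors purified mRNA, sequenced paired-end reads, aligned them with HISAT2 2.0.5 and counted them with featureCounts 1.5.0-p3; the processing notes also name StringTie 1.3.3b, DESeq2 1.20.0 and edgeR 3.22.5. The strand setting is not given in the sources used here, so reads of overlapping antisense genes cannot be told apart. The notes name the build mm10, while the sequence accessions in the table are those of GRCm39, whose coordinates are given. Differential results of the authors were not used, and 0 sample columns were left out.

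For each comparison, genes averaging 25 or more counts over its libraries (the study's minimum) were fitted in R 4.3.3 with edgeR 4.0.16 (TMM scaling, quasi-likelihood F-test, two-sided) on the libraries of the groups compared. Adjusted p values are Benjamini-Hochberg values over all genes of the fit. SE is the size of the log2 fold change over the square root of F, and intervals are 95%. CPM uses TMM factors over all 36 libraries. Correlations used log2 CPM (prior count 2) centred on group means, with 100000 permutations of mice within groups (smallest p 1e-05). Alternatives were DESeq2 1.42.0, its size factors in edgeR, no minimum count, a replicate block, the rRNA-linked share as covariate, HFD-C mice of the same library set only, 1 fit over 36 libraries, other distance terms, and each replicate left out. A run on the mice numbered 2 to 6 alone was chosen after seeing the data. Of 11 listed rRNA-linked features, the 5 in the table gave the share. Each script was tested on simulated counts first.

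The members, the 5 pathway lists and the 10 marker lists were chosen with earlier results of these data known. Named genes were all members, in each pathway list those past the adjusted threshold in the 6-group test (otherwise the 3 with the smallest p), the 3 genes closest in pattern to each member, of which the first is printed, and the most abundant marker genes. A pathway gene that this rule names is not reported here. Counts of 2 mice of a group always differed beyond sampling noise (chi-square per degree of freedom 13.4 to 162 over 90 pairs), so each mouse counted once. The mice are separate animals, but nothing says that equal mouse numbers mark a shared litter or cage. In HFD-U against HFD-C all 6 pairs of equal number had deviations correlated at r over 0.1 (0.122 to 0.515). In HFD-50% and HFD-25% against HFD-C 5 and 4 of 6 pairs did. This was read from the same data and establishes no pairing. Total counts per library were 13060090 to 27981702, which limits Cacna2d4 more than any other member. Promoter windows were read from the RefSeq table of GRCm38.p6. Protein sequences were not used here.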

Additional observations from a re-analysis of the deposited data

Results flagged for a closer look

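In 60 sets of 6 mice, 1 for each member and group, the highest or lowest mouse was set apart by Dixon's test in 5, and chance sets apart about 1 in 20. Cacna2d4 was 11.6 CPM in HFD-U mouse 2, and 4.26 to 6.60 in the other HFD-U mice. Cacnb1 was 189 CPM in HFD-C mouse 6 and 114 to 133 in the others. Jph1 was 612 CPM in NFD-C mouse 2 and 380.0 to 462 in the others. HFD-50% mouse 4 was set apart in 2 members, with Cacng1 at 422 CPM against 210.0 to 283 in the other mice of its group and Stac3 at 98.5 CPM against 175 to 221. The same mouse had the lowest Jph2 and Cacna2d4 of all 36 mice, at 123 and 1.28 CPM. Without it the log2 fold change of Cacna2d4 in HFD-50% against HFD-C was -1.34 and that of Jph2 was -0.38. What set these mice apart was not tested.

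Cacna2d4 differed between HFD-50% and HFD-U in the direct comparison of both groups: the log2 fold change was -1.13 (unadjusted p = 0.00294, adjusted p = 0.242, edgeR), with 6 of 6 HFD-50% mice below the HFD-U mean. Without HFD-U mouse 2 it was -0.87 (unadjusted p = 0.0102), and with the rRNA-linked share as covariate -0.53 (unadjusted p = 0.166).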

How the results depend on the processing

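Of 1570 refitted log2 fold changes of members, 1397 kept direction and side of the threshold, 61 passed it newly, 14 lost it and 98 changed sign, 0 of these at an unadjusted p of at most 0.05. Members called by unadjusted p became, with DESeq2, 2 for running against HFD-C, 5 in HFD-50%, 1 in HFD-U, 2 in HFD-50% against HFD-U and 2 for distance over 30 mice, and 2 members passed by adjusted p among the 6 groups and 1 in HFD-50%. In the order of these 5 comparisons DESeq2 called 1162, 1392, 702, 1608 and 1579 of all genes by unadjusted p. The main fits tested 11851 to 12247 genes. With 1 fit over 36 libraries they were 2 for running, 5 in HFD-50% (1 by adjusted p) and 2 in HFD-50% against HFD-U, beside 1197, 1807 and 1748 of all genes. With no minimum count HFD-50% against HFD-U gave 2 beside 2844 of all genes, and 1 member passed by adjusted p in HFD-50%. With the rRNA-linked share as covariate members called were 3 for running, 1 in HFD-25%, 1 in HFD-U, 0 in HFD-50% against HFD-U and 2 for distance over 30 mice. Of all genes 1814, 1617, 1490, 543 and 1573 were called there. Controls of the same library set gave 1 in HFD-25% and 1 in HFD-50%, beside 1403 and 1122 of all genes. The linear term alone gave 0 over 30 mice and distance as a factor 1 over 24, beside 474 and 868 of all genes. Mice numbered 2 to 6 alone, chosen after seeing the data, gave 4 among the 6 groups, 3 for running and 2 for distance over the high-fat mice, beside 1668, 1053 and 1562 of all genes.

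With the replicate block, members called were 4 among the 6 groups (1 by adjusted p, Ryr1 at 0.00399), 2 for running, 5 in HFD-50%, 1 in HFD-U, 4 in HFD-50% against HFD-U, 2 for distance over 30 mice and 1 over 24. Of all genes the block called 2450, 1431, 1709, 1232, 2124, 2112 and 1497 in the same order. Mice of equal number share only a number as far as the labels say. In HFD-U against HFD-C 6 of 6 pairs deviated together, and in the other comparisons 1 to 5 of 6. The block turned Cacna2d1 in HFD-25% to -0.00024, Cacnb1 in HFD-U to 0.00037 and Stac3 in NFD-C to 0.0022.

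Other signs turned as follows. With the covariate, Cacna2d1 was -0.094 for running, Ryr1 0.0066 and Stac3 -0.071 in HFD-75%, and Stac3 -0.12 in HFD-U. In NFD-C Cacna2d4 was 0.19, Cacng6 0.013 and Stac3 0.064, and in HFD-50% against HFD-U Cacna2d1 was 0.18, Ryr1 0.089, Stac3 0.099, Jph1 0.021 and Jph2 0.083. With controls of the same set, Cacna2d1 was 0.040 in HFD-50%, Ryr1 0.047 and Stac3 -0.077 in HFD-75%, Stac3 -0.096 in HFD-U, and Cacna2d4 0.12 and Stac3 0.042 in NFD-C. With mice 2 to 6, Cacna2d1 was -0.032 in HFD-25%, Cacng1 0.015 and Stac3 -0.016 in HFD-75% and Stac3 -0.039 in HFD-U. The cause was not tested.

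Leaving out 1 replicate at a time, members called ranged from 2 to 3 among the 6 groups, 0 to 3 for running, 0 to 1 in HFD-25%, 1 to 6 in HFD-50%, 0 to 1 in HFD-75%, 0 to 1 in HFD-U, 1 to 2 in HFD-50% against HFD-U, 1 to 2 over 30 mice and 0 to 1 over 24, with 0 by adjusted p throughout. In HFD-50% there were 6 without HFD-50% mouse 1 or HFD-C mouse 4, 4 without HFD-50% mouse 2, and 1 without HFD-50% mouse 3, 4, 5 or 6 or HFD-C mouse 2 or 3. For running there were 0 without HFD-C mouse 3 or 5 and 3 without HFD-C mouse 4 (Cacna1s, Cacng6 and Ryr1), and 2 without HFD-25% mouse 1, 2 or 5, HFD-50% mouse 1, HFD-75% mouse 1, 2 or 6 or HFD-U mouse 2. Cacna2d4 was called without HFD-25% mouse 2 in HFD-25%, without HFD-75% mouse 2 or 4 in HFD-75% and without HFD-U mouse 2 in HFD-U, while Ryr1 was called in HFD-U without HFD-C mouse 4 or 6. HFD-50% against HFD-U gave 2 without HFD-50% mouse 1 or 2 or HFD-U mouse 4. Distance gave 1 over 24 mice without HFD-75% mouse 2 or 4, and 2 over 30 mice without HFD-25% mouse 1 or 5, HFD-50% mouse 1, HFD-75% mouse 2 or 4, HFD-C mouse 4 or HFD-U mouse 4. Of all genes 1333 to 1708 were called among the 6 groups, 969 to 1251 for running and 1026 to 1644 in HFD-50%. The range was 1010 to 2070 in HFD-50% against HFD-U and 1197 to 1789 for distance over 30 mice. Counts of all genes for each single mouse left out are not given here. Whether the members' counts rose beyond a general rise in calls was therefore not tested.

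Fold changes whose sign turned in these runs ranged, for running, from -0.062 to 0.067 (Cacna2d1), -0.10 to 0.072 (Cacnb1) and -0.24 to 0.025 (Cacng1). In HFD-25% they were -0.090 to 0.077 (Cacna2d1) and -0.14 to 0.048 (Cacnb1), and in HFD-50% -0.13 to 0.045 (Cacnb1) and -0.29 to 0.028 (Cacng1). In HFD-75% they were -0.032 to 0.11 (Cacna2d1), -0.12 to 0.087 (Cacnb1), -0.15 to 0.12 (Cacng1), -0.027 to 0.054 (Stac3), -0.054 to 0.064 (Jph1) and -0.14 to 0.061 (Jph2). In HFD-U they were -0.058 to 0.11 (Cacnb1), -0.22 to 0.041 (Cacng1), -0.12 to 0.0075 (Cacng6), -0.046 to 0.040 (Stac3), -0.16 to 0.032 (Jph1) and -0.13 to 0.065 (Jph2). In NFD-C they were -0.036 to 0.14 (Cacna2d1), -0.19 to 0.051 (Cacna2d4), -0.10 to 0.016 (Cacng6), -0.054 to 0.029 (Stac3) and -0.018 to 0.18 (Jph2), and in HFD-50% against HFD-U -0.19 to 0.091 (Cacng1) and -0.097 to 0.011 (Ryr1).

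Genes called over the whole table changed by more than 1.5 times as follows. With no minimum count they went from 1475 to 5102 among the 6 groups, 1113 to 3928 for running, 852 to 2415 in HFD-25%, 1296 to 2922 in HFD-50%, 663 to 2157 in HFD-75%, 657 to 2251 in HFD-U, 504 to 2240 in NFD-C, 1472 to 2844 in HFD-50% against HFD-U, and 1468 to 5723 and 1013 to 3699 for distance over 30 and 24 mice. With the covariate they were 1814 for running, 1490 in HFD-U, 1020 in HFD-75%, 1617 in HFD-25%, 864 in NFD-C, 543 in HFD-50% against HFD-U and 575 for distance over 24 mice. Controls of the same set gave 1069 in HFD-75%, 1390 in HFD-U and 1403 in HFD-25%, the block 2450 among the 6 groups, 1232 in HFD-U and 850 in NFD-C, and the linear term alone 474 over 30 mice. Depth limits Cacna2d4 most, with 22 counts in its lowest library.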
